A study of Homo sapiens with 6 samples.

Results

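The imprinted-locus C/D box snoRNAs were taken as every entry of the count tables whose name has the base SNORD64, SNORD107, SNORD108, SNORD109, SNORD113, SNORD114, SNORD115 or SNORD116, with any copy suffix. 116 of the 28846 entries listed for each library met this rule. They were 1 SNORD64, 1 SNORD108, 2 SNORD109, 10 SNORD113, 30 SNORD114, 45 SNORD115 and 27 SNORD116 entries. SNORD107 and some numbered copies of the arrays were not analysed here. 113 of the 116 names matched a GENCODE gene, and the other 3 were the names SNORD113, SNORD115 and SNORD116 without a copy number, which could not be placed at a locus. At least 1 count was found for 42 of the 116 entries, 36.2%, over the 6 libraries.

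The data were small RNA sequencing counts from K562, a human erythroleukaemia cell line. The control group held 3 cultures transduced with the empty lentiviral vector SIEW, which expresses GFP only, and the RUNX1 group held 3 cultures transduced with SIEW RUNX1, which overexpresses human RUNX1 and GFP. RNA was taken from both groups after 10 days in culture, and the transductions were described as independent. RUNX1 is a transcription factor of the blood lineages, its mRNA is not among the small RNA entries, and its overexpression could therefore not be checked in these counts. Library totals were 1618248, 6152921 and 6193319 counts in control 1 to 3 and 15245007, 8506758 and 7918551 in RUNX1 1 to 3. The library names carry the letter A in every control and the letter B in every RUNX1 library, and if these letters mark separate preparations, preparation and vector cannot be told apart. The erythroid miR-451a was counted in every library, between 5950 and 23985 times, and the neuronal miR-124-3p in none. The brain-linked miR-219a-5p had 2, 11 and 15 counts in control 1 to 3 and 70, 39 and 25 in RUNX1 1 to 3. Also brain-linked, miR-9-5p and miR-9-3p had at most 2 counts in any library. The muscle-linked miR-1 had 0, 1 and 0 counts in control 1 to 3 and 70, 29 and 42 in RUNX1 1 to 3. Of the other muscle-linked entries, miR-133a-3p had at most 5 counts in any library and miR-206 had 0. The liver-linked miR-122-5p had 1 to 13 counts.

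C/D box snoRNAs are short nucleolar RNAs, released from the introns of a host transcript, that usually guide 2′-O-methylation of other RNAs. Their C box near the 5′ end and D box near the 3′ end bind the proteins that protect the RNA from trimming. The SNORD115 and SNORD116 arrays lie at 15q11-q13 and are expressed from the paternal allele, with SNORD115 best known from brain and loss of the SNORD116 array linked to Prader-Willi syndrome. The SNORD113 and SNORD114 arrays lie at 14q32, in the DLK1-DIO3 domain, and are expressed from the maternal allele together with a large microRNA cluster. For most of these copies no RNA target is established.

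The sequences of the most counted copy of each detected base are given first, so that the copies with the highest counts can be compared letter by letter. They are GENCODE 29 transcripts on GRCh38, all on the plus strand, matched by gene name, whereas the deposited counts were made on hg19 and carry no coordinates of their own. Capitals mark TGATGA within the first 20 bases, the C box, and CTGA within the last 15 bases, the D box. Of SNORD115, copies 10 and 14 are both shown because each had 1 count.
SNORD113-9: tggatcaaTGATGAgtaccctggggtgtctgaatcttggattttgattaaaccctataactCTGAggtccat
SNORD114-1: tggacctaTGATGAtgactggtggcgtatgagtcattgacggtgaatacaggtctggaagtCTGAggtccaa
SNORD64: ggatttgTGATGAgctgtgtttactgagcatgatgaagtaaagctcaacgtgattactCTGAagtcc
SNORD116-24: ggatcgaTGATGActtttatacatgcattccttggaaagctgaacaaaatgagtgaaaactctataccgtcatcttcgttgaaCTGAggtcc
SNORD115-10: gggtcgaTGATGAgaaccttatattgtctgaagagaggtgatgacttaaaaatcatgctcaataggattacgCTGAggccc
SNORD115-14: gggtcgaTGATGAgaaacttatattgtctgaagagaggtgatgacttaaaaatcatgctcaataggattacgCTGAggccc

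SNORD113-9 lies at chr14:100945649-100945720 and SNORD114-1 at chr14:100949833-100949904, both in introns of MEG8, the non-coding host transcript annotated at chr14:100894770-101038859. SNORD64 lies at chr15:24985100-24985166, SNORD116-24 at chr15:25094037-25094128, SNORD115-10 at chr15:25187536-25187616 and SNORD115-14 at chr15:25194921-25195001, all in introns of SNHG14, annotated at chr15:24978583-25419462. All 39 numbered 14q32 copies lie within MEG8 and all 74 placed 15q11-q13 copies within SNHG14. The 14q32 copies span 68.5 kb and the 15q11-q13 copies 293 kb. 6 of the 113 placed copies overlap an annotated exon of their host, and 5 of those 6 had counts.

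3 further sequences, chosen after the counts were seen, are shown because they illustrate which copies had no counts. SNORD116-14 (chr15:25080142-25080233) had 8 counts in all, whereas SNORD116-19 (chr15:25086527-25086618), 98.9% identical to it and with the same sequence as SNORD116-17, had 0. SNORD114-24 (chr14:100984777-100984848) lacks TGATGA in its first 20 bases and also had 0 counts.
SNORD116-14: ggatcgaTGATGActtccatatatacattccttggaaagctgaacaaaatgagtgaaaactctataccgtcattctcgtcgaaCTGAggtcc
SNORD116-19: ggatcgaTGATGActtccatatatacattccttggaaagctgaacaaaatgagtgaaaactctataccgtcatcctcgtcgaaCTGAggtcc
SNORD114-24: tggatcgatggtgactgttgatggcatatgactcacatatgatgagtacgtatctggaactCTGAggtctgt

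Detection differed widely between the families. SNORD64 was detected. Of the SNORD113 entries, 8 of 10 had counts: copies 3 to 9 and the unnumbered entry. Of SNORD114, 12 of 30 copies had counts, namely copies 1, 3, 9, 12, 13, 14, 17, 20, 22, 23, 25 and 26. Of SNORD116, 19 of 27 entries had counts, namely copies 1, 2, 6, 8, 10, 11, 13, 14, 15, 16, 18, 21, 23, 24, 25, 26, 27 and 29 and the unnumbered entry. Of the 45 SNORD115 entries only copies 10 and 14 had a count, 1 each, in control 1 and control 3. SNORD108 had 0 counts in every library, which allows up to 3 counts over the 45634804 counts of the 6 libraries together, or 0.0657 CPM (counts in every 1000000 counts of the library). SNORD109A and SNORD109B, which have the same sequence, were also listed at 0 in every library.

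The counts were low throughout. The 116 entries together had 536 counts, 11.7 CPM, and the median detected entry had 5.5 counts over the 6 libraries. 15 entries had at least 10 counts and held 444 of the 536 counts, 82.8%. The other 27 detected entries had between 1 and 8 counts. The 155 other C/D box snoRNA entries (names beginning SNORD) were counted far more often: 86.5% of them had counts, all but 21, with a median of 4515.5 over the 6 libraries among those detected. 115 of these 155 entries had more counts than SNORD113-9, the most counted imprinted copy.

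**Figure D1:**
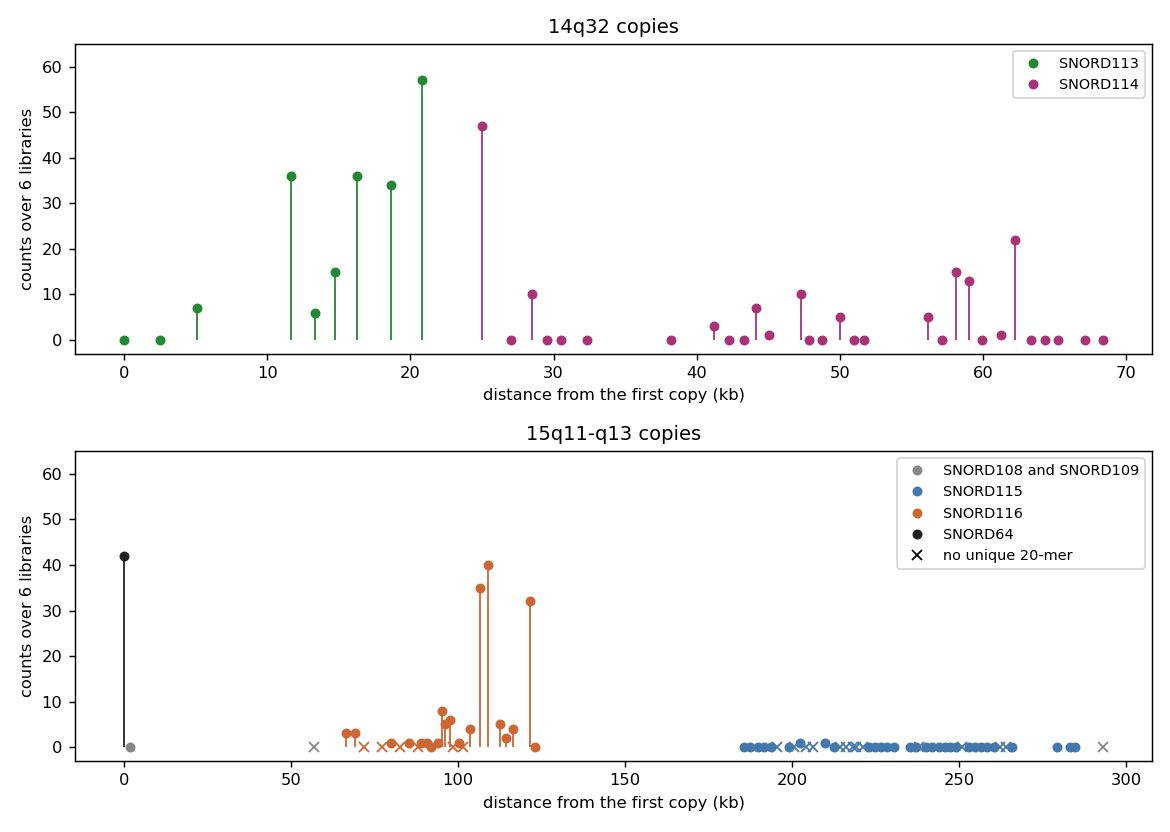
Counts summed over the 6 libraries (vertical axis) for each placed copy against its distance in kb from the first copy of the locus (horizontal axis), for 14q32 (upper panel) and 15q11-q13 (lower panel). Circles are copies with at least 1 unique 20-base stretch, and crosses are copies with none. SNORD113-9, with 57 counts, stands highest at 14q32, SNORD64 with 42 and SNORD116-24 with 40 stand highest at 15q11-q13, and the SNORD115 array lies at 0 except for 2 copies with 1 count.

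Along the 14q32 array the counts were concentrated around the boundary of the SNORD113 and SNORD114 arrays. SNORD113-9, with 57 counts, and SNORD114-1, with 47, are the neighbouring end copies of the 2 arrays. SNORD113-4 and SNORD113-7 followed with 36 counts each and SNORD113-8 with 34. Within SNORD114, copies 26, 22 and 23, which lie close to each other, had 22, 15 and 13 counts, and no copy numbered above 26 had any.

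The SNORD116 array was likewise uneven. Copies 1 to 9 (8 entries) had 8 counts in all, copies 10 to 24 (13 entries) had 102, and copies 25 to 30 (5 entries) had 43. SNORD116-24, SNORD116-23 and SNORD116-29 alone had 40, 35 and 32 counts. The counts of copies 10 to 24 were 6, 14 and 12 in control 1 to 3 and 39, 25 and 6 in RUNX1 1 to 3.

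Near-identical copies limit what a single entry can show, because reads that fit several copies may have been split among them, given to 1 of them or dropped, and the rule used is not given in the sources used here. For each placed copy the share of its 20-base stretches found in no other GENCODE snoRNA transcript was therefore computed. 21 copies had no unique 20-base stretch: SNORD109A, SNORD109B, 6 SNORD116 copies and 13 SNORD115 copies. None of these 21 had a count, whereas 40 of the 92 copies with a unique stretch did. With stretches of 15, 25 or 30 bases, 22, 19 and 19 copies had no unique stretch, and in each case 0 of them were detected. A count of 0 for these copies is therefore no measure of their own level.

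The shared sequence was greatest in SNORD115 and SNORD116. The median identity over all pairs was 93.9% in SNORD115, 83.2% in SNORD116, 77.9% in SNORD113 and 77.0% in SNORD114. In SNORD116, 18 of the 20 copies with a unique 20-base stretch had counts, the exceptions being SNORD116-12 and SNORD116-30. In SNORD115, 31 of 44 copies had a unique stretch and 2 of these had a count. SNORD115-23 and SNORD115-48, in which 92.1% and 89.5% of the 20-base stretches are unique, had 0 counts in every library.

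Detection also went with the C box letters. 97 of the 113 placed copies had TGATGA in their first 20 bases and 40 of these were detected, whereas none of the 16 copies without it was. These 16 were SNORD113-2, 10 SNORD114 copies, 4 SNORD115 copies and SNORD116-30, and all 16 had a unique 20-base stretch. In SNORD114, where every copy had a unique stretch, 12 of 20 copies with these letters and 0 of 10 without them had counts. CTGA was found in the last 15 bases of 108 of the 113 copies, and none of the 5 without it was detected. Both sets of letters were present in 83.2% of the placed copies and in 22.3% of all 955 GENCODE snoRNA transcripts, which include H/ACA snoRNAs, searched on the RNA strand only. These are matches of letters and show neither function nor its absence. 36 copies had both a unique stretch and the C box letters but no count, 25 of them in SNORD115, 8 in SNORD114 and 1 each in SNORD113, SNORD116 and SNORD108.

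The number of entries detected differed between libraries of different depth. At least 1 count was found for 14, 23 and 25 entries in control 1 to 3 and for 32, 27 and 20 in RUNX1 1 to 3. The smallest library, control 1, had the fewest and the largest, RUNX1 1, the most, but RUNX1 3 had fewer than the shallower control 2 and control 3. With every library brought by calculation to the smallest total, 1618248 counts, 14, 14.1 and 13.5 entries were expected in control 1 to 3 and 11.1, 11.2 and 8.87 in RUNX1 1 to 3. The order of the groups thus turned when depth was equalised. At equal depth these numbers follow the share of all counts that reached the entries. That share depends both on the entries themselves and on the other RNAs in the library, and the 2 were not told apart. Its dependence on the scaling is described for the families. 9 entries had a count in all 6 libraries, and 12 had a count in 1 library only.

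**Figure D2:**
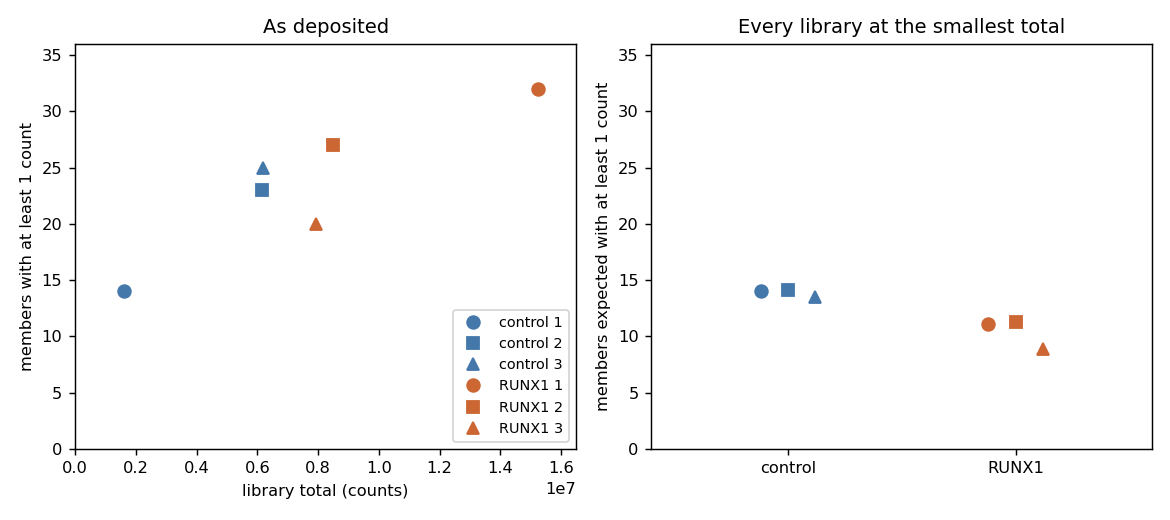
Entries with at least 1 count in each library against the library total in counts (left), and the number expected with every library at the smallest total (right). Blue is control, orange is RUNX1, and the symbol gives the replicate. As deposited, the number runs from 14 in the smallest library to 32 in the largest; at equal depth the control libraries lie between 13.5 and 14.1 and the RUNX1 libraries between 8.87 and 11.2.

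Counting by group, 28 entries had counts in both groups, 12 in RUNX1 only and 2 in control only. The RUNX1 libraries together were deeper, with 31670316 counts against 13964488. No entry found in a single group had more than 8 counts. 12 of these 14 entries had at most 3 counts. A count of 0 allows up to 3 counts, or 0.215 CPM over the control libraries together and 0.0947 CPM over the RUNX1 libraries. The same split between the groups was not computed over all entries.

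The comparison of RUNX1 with control asked whether any copy changed when RUNX1 was overexpressed. It was made with edgeR's quasi-likelihood test on all entries that passed a filter on low counts, with TMM scaling, and an entry was called when its unadjusted p was under 0.05 and its log2 fold change was at least 0.5 in size. SNORD113-9 was the only imprinted copy that passed the filter. It was not called, so that 0 members were called higher and 0 lower, and none had an unadjusted p under 0.05. DESeq2 also called 0. Over all 947 entries tested, 57.6% were called, 28.0% higher and 29.6% lower in RUNX1. With library size alone as the scaling, 120 entries were called higher and 521 lower, against 265 and 280 with TMM, and the median log2 fold change over all 947 entries was -0.76, against -0.06. With 1 member tested, these shares cannot be set against the members. In bulk RNA, a change in the number of cells that express a copy and a change in its level per cell cannot be told apart.

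SNORD113-9 had 5, 11 and 2 counts in control 1 to 3 and 27, 6 and 6 counts in RUNX1 1 to 3. On the TMM-scaled CPM these corresponded to 2.39, 1.36 and 0.263 in the control and 2.34, 0.96 and 0.875 in RUNX1. The groups overlapped, with 1 library in each above 2. The mean was 1.34 ± 1.06 (SD, n = 3) in control and 1.39 ± 0.823 (SD, n = 3) in RUNX1. The fitted log2 fold change was 0.52 with a standard error of 0.65 and a 95% interval from -0.95 to 2.0 (Benjamini-Hochberg adjusted p = 0.513 by edgeR's quasi-likelihood test). The interval thus leaves room for a change of the size used for calls in either direction. Without RUNX1 1 the log2 fold change was -0.16, without control 3 it was -0.12, and with library size alone as the scaling it was -0.20.

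**Figure D3:**
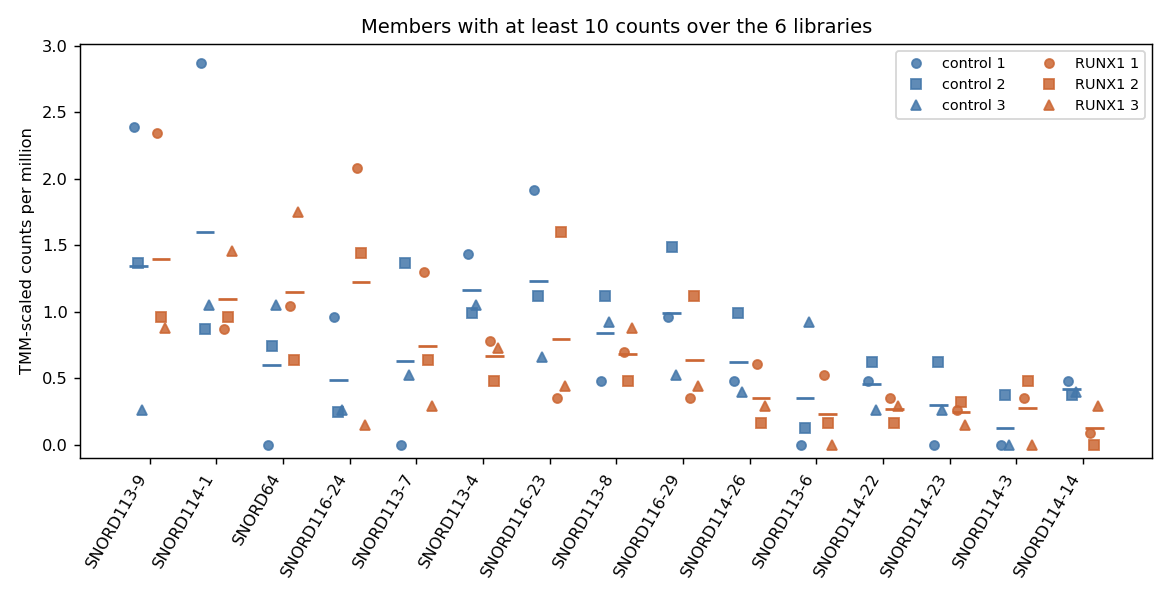
TMM-scaled CPM in each library for the 15 entries with at least 10 counts over the 6 libraries, in order of total count. Points are libraries (blue control, orange RUNX1, symbol for the replicate) and short bars are group means over 3 libraries. The points of the groups overlap for 13 of the 15 entries, SNORD113-4 and SNORD114-14 being the exceptions. The share without overlap among all entries was not computed, so this number is no result about the 15.

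The other entries with at least 10 counts did not pass the filter and are given as counts. SNORD114-1, the first copy of its array, had 6, 7 and 8 counts in the control libraries and 10, 6 and 10 in RUNX1. Its counts thus lay between 6 and 10 in every library, but the library totals differed, so that this was no steady level. The TMM-scaled CPM were 2.87, 0.868 and 1.05 in control 1 to 3 and 0.867, 0.960 and 1.46 in RUNX1 1 to 3, with overlapping groups. SNORD64, a single-copy snoRNA of the 15q11-q13 locus, had 0, 6 and 8 counts in the control libraries and 12, 4 and 12 in RUNX1. Its TMM-scaled mean was 0.599 ± 0.541 CPM (SD, n = 3) in control and 1.14 ± 0.563 (SD, n = 3) in RUNX1, with overlapping groups.

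SNORD116-24 had 2, 2 and 2 counts in the control libraries and 24, 9 and 1 in RUNX1. RUNX1 1 and RUNX1 2 lay above every control library and RUNX1 3 below every one, at 0.146 against 0.248 to 0.956 TMM-scaled CPM in control. SNORD116-23, 92.4% identical to it, had 4, 9 and 5 counts in the control libraries and 4, 10 and 3 in RUNX1. SNORD116-29 had 2, 12 and 4 counts in the control libraries and 4, 7 and 3 in RUNX1. In the latter 2 copies the counts of the groups overlapped, and differences between copies were not tested.

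In SNORD113, copy 4 had 3, 8 and 8 counts in the control libraries and 9, 3 and 5 in RUNX1, copy 7 had 0, 11 and 4 against 15, 4 and 2, and copy 8 had 1, 9 and 7 against 8, 3 and 6. SNORD113-6 had 0, 1 and 7 counts in the control libraries and 6, 1 and 0 in RUNX1. Overlap between the groups was not counted over all entries. SNORD113-4 was among the 2 named entries whose TMM-scaled groups did not overlap, with 0.992 to 1.43 CPM in control and 0.48 to 0.78 in RUNX1. When every entry with at least 1 count was tested, as described next, its log2 fold change was -0.59 with a 95% interval from -1.78 to 0.60, and it was not called.

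In SNORD114, copy 26 had 1, 8 and 3 counts in the control libraries and 7, 1 and 2 in RUNX1, copy 22 had 1, 5 and 2 against 4, 1 and 2, and copy 23 had 0, 5 and 2 against 3, 2 and 1. SNORD114-3 had 0, 3 and 0 counts in the control libraries and 4, 3 and 0 in RUNX1. SNORD114-14, the other entry without overlap, had 1, 3 and 3 counts in the control libraries and 1, 0 and 2 in RUNX1.

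The named entries were chosen by their total count, which limits the range of their values per base. The annotated length was used, although each read covers only part of a copy. Divided by length, the TMM-scaled mean over the 6 libraries was 1.90 CPM per 100 bases for SNORD113-9, 1.87 for SNORD114-1, 1.30 for SNORD64, 1.22 for SNORD113-4 and 1.10 for SNORD116-23. The lowest of the 15 was SNORD114-3 with 0.266. The spread between libraries of SNORD113-9 and SNORD114-1 was larger than the difference between these neighbouring levels.

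Without the filter, 42 members and 3084 entries in all were tested. 3 members were called higher in RUNX1 and 0 lower, beside 12.4% of all entries called higher and 12.3% lower. SNORD116-24 had a log2 fold change of 1.93 with a standard error of 0.68 (Benjamini-Hochberg adjusted p = 0.0251 by edgeR's quasi-likelihood test). In this fit the spread was in effect pooled over entries, so that its p-values hardly use the spread of each copy itself. SNORD116-14 had 0, 0 and 0 counts in the control libraries and 3, 4 and 1 in RUNX1 (adjusted p = 0.0727, same edgeR test), and SNORD113-3 had 0, 0 and 0 against 3, 0 and 4 (adjusted p = 0.108, same edgeR test). These 2 copies, at 0 in every control library, entered the test through their counts in RUNX1 alone, so that they could only come out higher.

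These 3 calls were not made by every fit. DESeq2 on the same 3084 entries called 0 members, beside 307 of all entries higher and 265 lower. In 8 edgeR fits of the unfiltered table, namely the full one, 6 with 1 library left out and 1 with a replicate block, SNORD116-24 was called in 6, SNORD116-14 in 4 and SNORD113-3 in 4. SNORD116-24 was not called without RUNX1 1, with a log2 fold change of 1.32. SNORD116-14 was not called without control 2, control 3 or RUNX1 2, and SNORD113-3 was not called without control 2, control 3 or RUNX1 3. Their log2 fold changes over the 8 fits ran from 3.77 to 4.76 and from 3.51 to 4.59. With 0 counts in every control library their direction was fixed in each fit, so these ranges are no support for a change. In the block fit 0 members were called, beside 342 of all 3084 entries higher and 312 lower. With library size alone as the scaling, the unfiltered table gave 1 member higher, SNORD116-14, and 4 lower, SNORD113-4, SNORD114-14, SNORD116-23 and SNORD116-29. Of all 3084 entries, 162 were called higher and 764 lower in that fit.

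Summed over copies, the families were measured better. SNORD113 had 9, 41 and 32 counts in the control libraries and 74, 18 and 23 in RUNX1. SNORD114 had 10, 33 and 20 in the control libraries and 34, 23 and 19 in RUNX1. SNORD116 had 10, 29 and 20 in the control libraries and 47, 38 and 12 in RUNX1, and SNORD115 had 1, 0 and 1 against 0, 0 and 0. With 2 counts in all, no difference in SNORD115 was detectable, and since 13 of its 44 placed copies have no unique 20-base stretch, its counts set no upper limit for the family.

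As a share of all counts, with library size as the only scaling, SNORD113 had 5.56, 6.66 and 5.17 CPM in control and 4.85, 2.12 and 2.90 in RUNX1. The 95% Wilson intervals, which cover counting error only, ran from 2.93 to 10.6 in control 1 and from 3.87 to 6.09 in RUNX1 1, which overlap. Those of control 2, from 4.91 to 9.04, and control 3, from 3.66 to 7.29, lay above that of RUNX1 2, from 1.34 to 3.34, and that of control 2 also lay above that of RUNX1 3, from 1.94 to 4.36. SNORD114 had 6.18, 5.36 and 3.23 CPM in control and 2.23, 2.70 and 2.40 in RUNX1. Both 14q32 families were thus lower in every RUNX1 library than in any control library on this scale. SNORD116 overlapped, with 3.23 to 6.18 CPM in control and 1.52 to 4.47 in RUNX1. The lack of overlap was not particular to 14q32, since the other C/D box snoRNAs together showed it too. The log2 ratio of the group means was -0.82 for SNORD113, -1.01 for SNORD114, -0.64 for SNORD116 and -0.89 for the other C/D box snoRNAs. The share of all entries without overlap was not computed.

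The difference at 14q32 depended on the scaling. With TMM scaling SNORD113 had 4.53 ± 0.481 CPM (SD, n = 3) in control and 4.22 ± 1.92 (SD, n = 3) in RUNX1, SNORD114 had 3.84 ± 1.10 and 3.13 ± 0.480, and SNORD116 had 3.67 ± 1.08 and 3.97 ± 2.17. The groups overlapped in all 3 families on that scale. Fitted over the whole table with copies of the same base name summed, the log2 fold change was -0.11 (95% interval -0.86 to 0.64) for SNORD113, -0.27 (-0.93 to 0.39) for SNORD114 and 0.16 (-0.78 to 1.10) for SNORD116, and none of the 3 was called.

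Other values moved with the share of all counts. miR-10a-5p took 5.81% to 7.02% of all counts in the control libraries and 24.5% to 29.3% in the RUNX1 libraries. The other C/D box snoRNAs together took 7.45% to 7.68% in control and 3.81% to 4.58% in RUNX1. With miR-10a-5p left out of the total, the 14q32 copies had a mean of 11.2 CPM in control and 7.86 in RUNX1, against 10.5 and 5.69 with it. In every 1000000 SNORD counts, the 14q32 copies had 138 ± 27.5 (SD, n = 3) in control and 141 ± 36.2 (SD, n = 3) in RUNX1, and the 15q11-q13 copies 71.8 ± 10.1 and 97.7 ± 30.6, with overlapping groups at both loci.

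**Figure D4:**
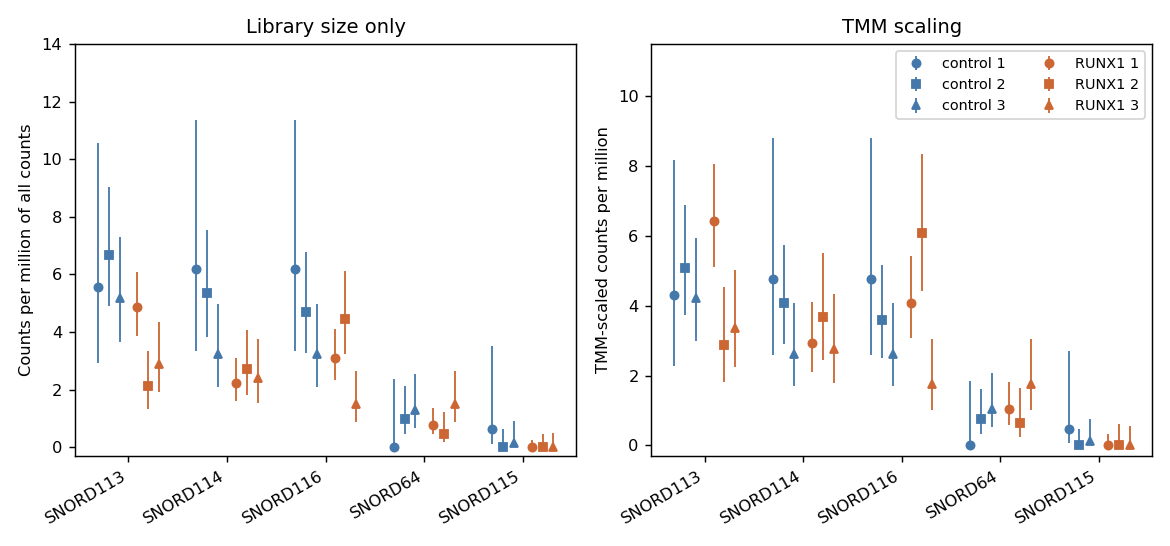
CPM of each family in each library, with library size alone (left) and with TMM scaling (right). Points are libraries (blue control, orange RUNX1, symbol for the replicate) and bars are 95% Wilson intervals for counting error. SNORD113 and SNORD114 lie lower in the RUNX1 libraries on the left, whereas the groups overlap on the right. The share of all entries without overlap was not computed.

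Other small RNAs were counted far more often, among them the microRNAs of the 14q32 locus. Of a list of 92 mature microRNA arms of the 14q32 cluster, 71 had counts, 26 passed the filter, 10 were called higher and 4 lower in RUNX1, beside 28.0% and 29.6% of all entries tested. With library size alone 2 were called higher and 9 lower. The median log2 fold change of these 26 with TMM on all entries was 0.37, beside -0.06 over all 947 entries tested. With TMM factors from the microRNA entries only, 4 of the 26 were called higher and 5 lower. Their median was then 0.17, beside -0.26 over all 947 entries. The 155 other C/D box snoRNAs were taken by name and not by locus. Of these, 115 passed the filter, 32 were called higher and 34 lower (16 and 70 with library size alone), with a median log2 fold change of -0.12. The single imprinted copy tested, SNORD113-9, is the base of no such median.

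The 4 most abundant 14q32 arms were miR-127-3p, miR-411-5p, miR-381-3p and miR-654-3p. miR-411-5p had 67.4, 81.9 and 82.0 TMM-scaled CPM in control and 131, 120 and 119 in RUNX1, and was called higher with a log2 fold change of 0.67 (Benjamini-Hochberg adjusted p = 0.00225 by edgeR's quasi-likelihood test). miR-654-3p was called higher with 0.56 (adjusted p = 0.0207, same edgeR test). miR-127-3p and miR-381-3p were not called, with log2 fold changes of 0.20 (95% interval -0.22 to 0.63) and 0.14 (-0.21 to 0.48). With library size alone miR-411-5p and miR-654-3p were at -0.03 and -0.15 and were not called, whereas miR-127-3p and miR-381-3p were called lower with -0.51 and -0.57, so that the direction of all 4 arms differed between the scalings.

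The tables also hold an entry for each host transcript, listed among the snoRNAs and looked at after the values were seen. Which stretch of the host these entries cover, and whether reads of the copies were kept out of them, is not given in the sources used here. MEG8, the host at 14q32, had 17, 72 and 93 counts in the control libraries and 75, 29 and 19 in RUNX1. On the TMM scale they corresponded to 8.13, 8.93 and 12.2 CPM in control and 6.50, 4.64 and 2.77 in RUNX1, so that every RUNX1 library was below every control library. MEG8 was called lower with a log2 fold change of -1.07 and a standard error of 0.31 (Benjamini-Hochberg adjusted p = 0.0161 by edgeR's quasi-likelihood test). With library size alone it was -1.78, and without RUNX1 3 it was -0.72 and still called. Without control 3 it was -0.85 and called on the unadjusted p only, with an adjusted p of 0.0928 (same edgeR test).

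SNHG14, the host at 15q11-q13, had 3, 27 and 28 counts in the control libraries and 61, 28 and 22 in RUNX1. It was not called, with a log2 fold change of 0.48 (95% interval -0.24 to 1.20), although without RUNX1 3 it was called higher with 0.71. With library size alone its log2 fold change was -0.22. MEG8 and the SNORD113 and SNORD114 sums were measured in the same libraries, and whether MEG8 differed from them was not tested.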

How the data were processed

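Small RNA libraries of 3 control and 3 RUNX1 cultures (TruSeq Small RNA kit, single-end reads) were demultiplexed by the authors with CASAVA 1.8.2 and quantified on the OASIS platform. The submitters' processing notes name hg19. The reads were shorter than the snoRNAs, so that each covers only part of a copy. The counts alone do not tell a full-length RNA from a fragment, and the library size range given by the study was not weighed here. A count is therefore no measure of full-length copies. The deposited values are raw counts per entry. The aligner and its treatment of multiply mapped reads are not given in the sources used here.

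Members and lists were chosen with earlier results of these data known. Entries passing filterByExpr (minimum count 10, minimum total 15) were tested with edgeR 4.0.16 (R 4.3.3, TMM, glmQLFit and glmQLFTest), after a check on simulated counts. Calls used p under 0.05 and a log2 fold change of 0.5, the study's own thresholds. DESeq2 1.42.0, other scalings, other filters, summed copies, a replicate block and leaving out each library were alternatives. Named were all members that passed the filter, then those with at least 10 counts, and the 4 most abundant 14q32 microRNA arms. Identities were computed with edlib 1.3.9.post1 on GENCODE 29 transcripts. p-values measure the spread between 3 cultures a group, with the spread of each entry moderated by that of the other entries. In the edgeR fit of every entry with at least 1 count, the spread was in effect pooled over entries. Its p-values thus hardly use the spread of each copy itself. Replicates within a group differed by more than sampling noise (chi-square per degree of freedom at least 9.62). Wilson intervals and the floor of 3 counts cover counting error only.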

Additional observations from a re-analysis of the deposited data

How the results depend on the processing

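1 member was tested, and 0 were called in either direction under every alternative on filtered or summed counts, whereas testing every entry with at least 1 count gave 42 tested and 3 higher. With at least 10 counts in every sample 0 members were tested, with copies summed 3 families, and with 1 library left out 1 to 4 members. Of the alternatives added after seeing the data, all on unfiltered entries with 42 members tested, DESeq2 and the replicate block called 0. Library size alone called 1 higher and 4 lower, beside 162 higher and 764 lower of all 3084 entries. The log2 fold change of SNORD113-9 was above 0 in 12 of 16 refits and was never called, with adjusted p from 0.141 to 0.960 (edgeR and DESeq2). It turned to -0.20 with library size alone (-0.23 unfiltered), ran from -0.16 to 0.89 with 1 library left out, and was 0.15 with the replicate block. Same-numbered libraries did not deviate together (r over entries from -0.09 to 0.02), so the numbers were not taken as pairs, and the block called 0 members of the filtered table; over all 947 entries it called 546 against 545, of which 528 were the same calls, and of the 14q32 microRNA arms 6 higher and 5 lower against 10 and 4. In every 1000000 snoRNA counts the 15q11-q13 copies had 47.2 in control and 59.9 in RUNX1 and the 14q32 copies 90.6 and 86.4; without miR-10a-5p in the total, the RUNX1 values were 5.44 and 7.86 CPM. With 1 library left out the 15q11-q13 share ran from 5.10 to 5.93 in control and 3.42 to 4.37 in RUNX1, and the 14q32 share from 9.83 to 11.8 and 5.06 to 6.13. The mean number detected fell from 20.7 to 13.9 in control and from 26.3 to 10.4 in RUNX1 at equal depth, and was 9.33 and 13.7 with at least 3 counts.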
